A study of Cricetiscus sungorus with 16 samples.

Results

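The genes described here are 6 oocyte genes: the zona pellucida glycoproteins Zp1 (NM_009580), Zp2 (NM_011775) and Zp3 (NM_011776), the oocyte growth factors Gdf9 (NM_008110) and Bmp15 (NM_009757), and the oocyte-secreted protein Oosp1 (NM_133353). They were picked by transcript identifier and not by a cutoff on measured values, but earlier results of these data were known when they were chosen. All 6 were on the array, as 6 of its 33272 transcript identifiers and 9 of its 41174 probes. All 6 were among the 20141 identifiers with enough signal to be tested, and 5 of the 6 were well above background on every one of the 16 arrays, the exception being Oosp1.

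RNA came from ovaries of Siberian hamsters that were gestated and kept under short days (SD, 10 h of light per day) or long days (LD, 16 h of light per day). The groups were SD at 8 wk, LD at 8 wk, SD at 3 wk and LD at 3 wk, with 4 hamsters each and 1 array per hamster. Short days delay sexual maturity in this species, and the design asks what differs between photoperiods at each age and between ages in each photoperiod. No genetic change or drug is named in the labels. For the 8-wk SD hamsters the labels disagree. The titles and descriptions name them SD, but only the description gives 10 h of light, while the title and the treatment field both give 16 h. The group was taken from the description, and every 8-wk SD value rests on that reading.

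The arrays carry mouse probes, so the match of each probe to the hamster transcript is unknown and levels were not compared between genes. A level is the log2 of a spot's processed intensity minus the log2 of its array's 75th percentile. That percentile was 282 to 389 intensity units on the 4 arrays of slide 1 and 781 to 1060 on the 12 arrays of the other slides, and 58% to 75.7% of probes were well above background per array. No spot of the 6 genes was saturated. Each of the 4 slides held 1 array of each group, and replicate numbers below are slide numbers. A group lay in the same place on every slide, so place and group cannot be told apart.

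The zona pellucida is the glycoprotein coat that a growing oocyte lays down around itself. Its proteins are made by the oocyte in the mouse and serve in sperm binding and in the block to further sperm after fertilisation. GDF9 and BMP15 are secreted members of the transforming growth factor beta family that act on the granulosa cells around the oocyte and are needed for normal follicle growth and cumulus function. In the mouse, transcripts of these genes build up as oocytes enter growth, and RNA of a whole ovary holds them beside the RNA of granulosa, theca, stromal and luteal cells.

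The levels of Zp2, Zp3, Gdf9 and Bmp15 were 2.36- to 3.62-fold lower in ovaries at 8 wk than at 3 wk, in hamsters of both photoperiods. In SD hamsters 4 of the 6 genes fell between the ages (limma with Benjamini-Hochberg adjustment over all 20141 identifiers, threshold 0.05), where 4.18% of all identifiers were called lower. In LD hamsters 3 of the 6 fell, where 1.75% of all identifiers were called lower. With slide as a block the counts were 4 of 6 in SD and 4 of 6 in LD, where 11.4% of all identifiers were called lower in SD and 7.14% in LD. None of the 6 was called higher at 8 wk, where 4.9% of all identifiers were in SD and 1.25% in LD. The median change over the 6 genes was -1.54 in SD and -1.29 in LD on the log2 scale, and that over all tested identifiers 0.01 and -0.04. The 6-gene median takes in Oosp1, which entered the test through the 3-wk groups alone. In whole ovaries, fewer cells of a type and less RNA per cell cannot be told apart.

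**Figure D1:**
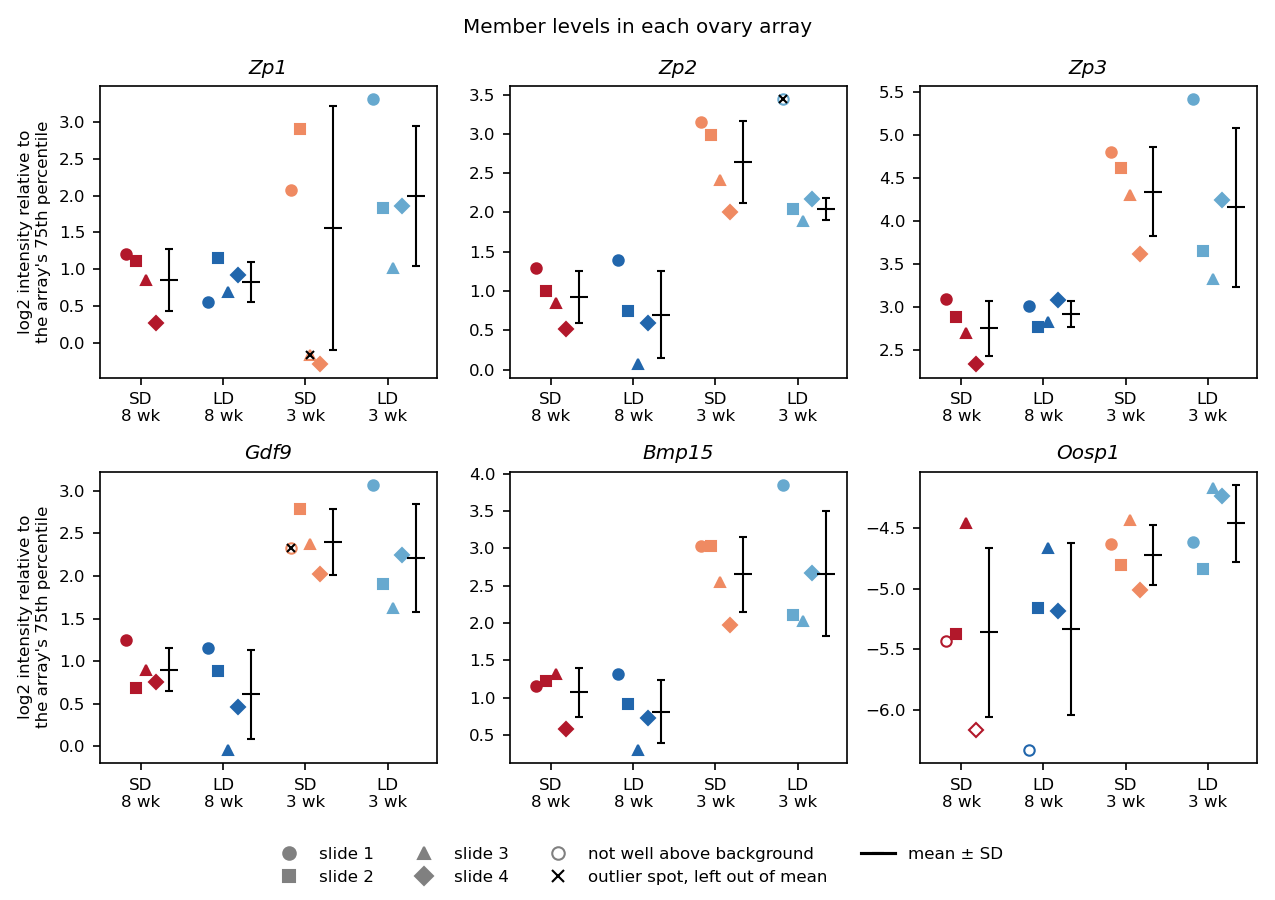
Log2 intensity relative to the array's 75th percentile (vertical axis, own scale per gene) for the 6 genes in SD 8 wk, LD 8 wk, SD 3 wk and LD 3 wk ovaries. Each symbol is 1 array, shaped by slide, and bars give mean ± SD. The 8-wk symbols of Zp2, Zp3, Gdf9 and Bmp15 all lie below the 3-wk symbols of the same photoperiod.

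Zp2, a component of the zona filaments that takes part in sperm binding and is cleaved after fertilisation, had levels of 1.30, 1.0, 0.85 and 0.52 in replicates 1 to 4 at 8 wk in SD, against 3.15, 2.98, 2.41 and 2.01 at 3 wk in SD. In LD its levels were 1.40, 0.75, 0.07 and 0.59 at 8 wk, against 2.04, 1.89 and 2.17 at 3 wk in replicates 2 to 4. Every 8-wk array was below every 3-wk array of the same photoperiod. The spot of replicate 1 in LD at 3 wk was marked as an outlier in the deposited file and was left out of the fit; it read 3.44. Zp2 fell by 1.72 on the log2 scale in SD (SE 0.28), or 3.29-fold, with a limma adjusted p of 0.00139. It fell by 1.34 in LD (SE 0.31), or 2.52-fold, with a limma adjusted p of 0.0274.

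The call for Zp2 in LD depended on which arrays were kept. It was lost without replicate 2, 3 or 4 of either LD group, with adjusted p between 0.0612 and 0.114 in limma and changes between -1.41 and -1.12. With slide as a block the change in LD was -1.51 and the adjusted p 0.00165, within a range of 0.000686 to 0.285 over 25 alternatives. A second, dim Zp2 probe was well above background on 1 of 4 arrays in SD at 8 wk and 3 of 4 in LD at 8 wk, and on all arrays at 3 wk. It entered the probe fit through the 3-wk groups alone, so its differences of -2.07 in SD and -1.54 in LD are a description and no further support.

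Zp3, the partner of ZP2 in the zona filaments, had levels of 3.09, 2.88, 2.69 and 2.33 at 8 wk in SD, against 4.81, 4.62, 4.30 and 3.62 at 3 wk in SD. In LD it had 3.01, 2.77, 2.82 and 3.08 at 8 wk, against 5.42, 3.65, 3.32 and 4.25 at 3 wk. The age groups did not overlap in either photoperiod, and the LD arrays at 3 wk were spread more widely (SD 0.93, n = 4) than those at 8 wk (SD 0.15, n = 4). Zp3 fell by 1.59 in SD (SE 0.36), or 3-fold, with a limma adjusted p of 0.0102. In LD the change was -1.24 (SE 0.36) and did not pass the test, with a limma adjusted p of 0.0782.

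Zp3 in LD passed with slide as a block (limma adjusted p = 0.0179) and, at -1.52, without replicate 3 at 3 wk (0.0397). Without replicate 1 at 3 wk the change was -0.82 and the limma adjusted p 0.171, and over 25 alternatives its adjusted p ran from 0.0177 to 0.335. The second Zp3 probe had narrower groups in LD, with means of 2.08 ± 0.15 at 8 wk and 3.35 ± 0.49 at 3 wk (SD, n = 4 each). By that probe Zp3 fell by 1.27 in LD (SE 0.24) with a limma adjusted p of 0.00941, and it fell by 1.65 in SD (SE 0.24) with 0.000413, adjusted over 24613 probes. The brighter probe stands for the gene in the counts above.

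Gdf9, the growth factor without which mouse follicles stop at an early stage, had levels of 1.25, 0.69, 0.90 and 0.75 at 8 wk in SD, against 2.79, 2.38 and 2.02 in replicates 2 to 4 at 3 wk in SD. The spot of replicate 1 at 3 wk in SD was an outlier spot at 2.33 and was left out. In LD its levels were 1.15, 0.89, -0.04 and 0.46 at 8 wk, against 3.07, 1.90, 1.62 and 2.24 at 3 wk. All 8-wk arrays again lay below the 3-wk arrays. Gdf9 fell by 1.5 in SD (SE 0.33), or 2.83-fold, with a limma adjusted p of 0.00956. It fell by 1.60 in LD (SE 0.30), or 3.02-fold, with a limma adjusted p of 0.0117. Without replicate 2 at 3 wk in SD the SD change was -1.30 and missed the threshold (limma adjusted p = 0.057, within 0.000338 to 0.202 over 25 alternatives). The LD call was kept when any LD array was left out. It was lost in 4 of 25 alternatives, with a limma adjusted p from 0.00159 to 0.187 over all of them.

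Bmp15, the X-linked partner of Gdf9, had levels of 1.16, 1.22, 1.32 and 0.58 at 8 wk in SD, against 3.03, 3.03, 2.55 and 1.97 at 3 wk in SD. In LD it had 1.31, 0.91, 0.30 and 0.72 at 8 wk, against 3.85, 2.11, 2.03 and 2.67 at 3 wk. The highest 8-wk array was at 1.32 and the lowest 3-wk array at 1.97, so the ages were apart across both photoperiods. Bmp15 fell by 1.58 in SD (SE 0.36), or 2.98-fold, with a limma adjusted p of 0.0102. It fell by 1.85 in LD (SE 0.36), or 3.62-fold, with a limma adjusted p of 0.0107. Ordered from the most negative change, Bmp15 ranked 171 in SD and 14 in LD among the 20141 identifiers, and Gdf9 203 in SD and 36 in LD. Both calls for Bmp15 were kept when any array of the groups compared was left out. Over 25 alternatives its limma adjusted p ran from 0.00152 to 0.121 in SD, where 1 lost the call. In LD it ran from 0.00198 to 0.131, and 3 lost the call.

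**Figure D2:**
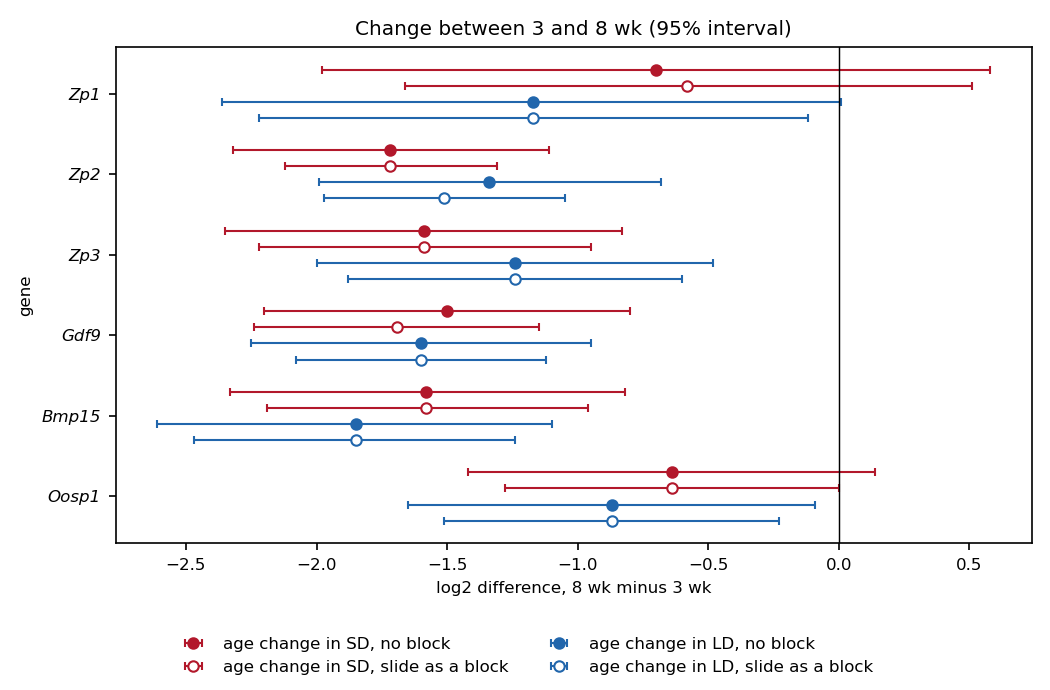
Log2 difference between 8 wk and 3 wk (horizontal axis) for each gene in SD and LD, with 95% intervals; filled symbols are the fit without a block and open symbols the fit with slide as a block. The intervals of Zp2, Zp3, Gdf9 and Bmp15 lie below 0 in all 4 fits, and those of Zp1 in SD reach above 0. Without a block those of Zp1 in LD and Oosp1 in SD also reach above 0, to 0.01 and 0.14.

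Zp1, which cross-links the zona filaments, did not pass the test in either photoperiod. Its levels were 1.21, 1.11, 0.86 and 0.27 at 8 wk in SD, against 2.08, 2.91 and -0.29 in replicates 1, 2 and 4 at 3 wk in SD. Replicate 3 at 3 wk in SD was an outlier spot at -0.16. In LD its levels were 0.55, 1.16, 0.69 and 0.92 at 8 wk, against 3.31, 1.83, 1.02 and 1.86 at 3 wk. The ages overlapped in both photoperiods. The change was -0.70 in SD (SE 0.60, limma adjusted p = 0.627) and -1.17 in LD (SE 0.56, limma adjusted p = 0.386).

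With outlier spots counted, replicates 3 and 4 at 3 wk in SD set Zp1 apart from the other zona genes. The value of Zp1 in replicate 3 is the outlier spot that was left out of the fit. The log2 ratio of Zp1 to Zp3, centred on its mean over the arrays, was -2.13 and -1.57 on those arrays and between -0.40 and 0.73 on the other 14. Zp3 was at 4.30 and 3.62 on those arrays, above all 8-wk arrays of SD hamsters. Without replicate 4 at 3 wk in SD the change of Zp1 in SD was -1.63 (SE 0.47) and passed the test (limma adjusted p = 0.0497, within 0.0497 to 0.998 over 25 alternatives). Without replicate 2 of the same group the change was -0.03, without replicate 1 it was -0.44, and with the outlier spot kept it was -0.26. Zp1 has 1 probe on the array, so no second probe bears on these values.

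Oosp1, a protein first described as secreted by mouse oocytes, gave signals near background. Its levels were -5.43, -5.37, -4.46 and -6.17 at 8 wk in SD, against -4.63, -4.80, -4.43 and -5.01 at 3 wk in SD. In LD they were -6.33, -5.16, -4.66 and -5.18 at 8 wk, against -4.61, -4.84, -4.17 and -4.23 at 3 wk. By this probe, replicates 1 and 4 in SD at 8 wk and replicate 1 in LD at 8 wk were not well above background, while all 3-wk arrays were. Oosp1 therefore entered the test through the 3-wk groups alone, and its age groups overlapped in both photoperiods. The change was -0.64 in SD (SE 0.37, limma adjusted p = 0.378) and -0.87 in LD (SE 0.37, limma adjusted p = 0.295). With dim signals raised to the lowest signal well above background the changes were -0.11 in SD and -0.41 in LD, an alternative chosen after seeing the data. A second Oosp1 probe was too dim for the test, being well above background on 2 of 4 arrays in SD at 8 wk, 3 of 4 in LD at 8 wk, 3 of 4 in SD at 3 wk and 2 of 4 in LD at 3 wk. It averaged -4.91 ± 0.54 at 8 wk and -4.62 ± 0.22 at 3 wk in SD, and -4.89 ± 0.30 at 8 wk and -4.80 ± 0.52 at 3 wk in LD (SD, n = 4 each), so its age means differed by less than the spread between arrays in LD.

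The age groups did not overlap for 4 of the 6 genes in SD, where 7.62% of all identifiers had 8-wk arrays wholly below 3-wk arrays, and for the same 4 in LD, where the share was 5.02%. Zp2, Gdf9 and Bmp15 were called lower in both photoperiods, as were 1.54% of all identifiers. Taken slide by slide, every measured difference between the 8-wk and the 3-wk array was below 0 for Zp2, Zp3, Gdf9 and Bmp15. Gdf9 in SD and Zp2 in LD were measured on 3 slides, as an outlier spot was left out. In SD these differences ran from -1.97 to -1.49 for Zp2, -1.74 to -1.28 for Zp3, -2.11 to -1.27 for Gdf9 and -1.86 to -1.23 for Bmp15. In LD they ran from -1.82 to -1.30 for Zp2, -2.41 to -0.50 for Zp3, -1.92 to -1.02 for Gdf9 and -2.54 to -1.20 for Bmp15. Zp1 was lower at 8 wk on 2 of 3 slides in SD and 4 of 4 in LD. The tested Oosp1 probe was lower on all 4 slides in each photoperiod and its second probe on 3 of 4 slides in SD and 2 of 4 in LD. That tested probe was near background and entered the test through the 3-wk groups alone, so its direction adds no support. With slide 2, 3 or 4 left out of the fit fewer calls were made. Without slide 2 none of the 6 was called in SD and 1 in LD, where 424 and 224 of all identifiers were. Without slide 3 there were 2 in SD and 0 in LD, where 788 and 21 of all identifiers were called. Without slide 4 there were 3 in SD and 0 in LD, where 858 and 5 were called. Without slide 1 the counts were 4 in SD and 3 in LD, where 2887 and 1227 were called. With all slides 1828 of all identifiers were called in SD and 603 in LD, counting both directions. The log2 changes with age kept their sign in all of these fits.

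**Figure D3:**
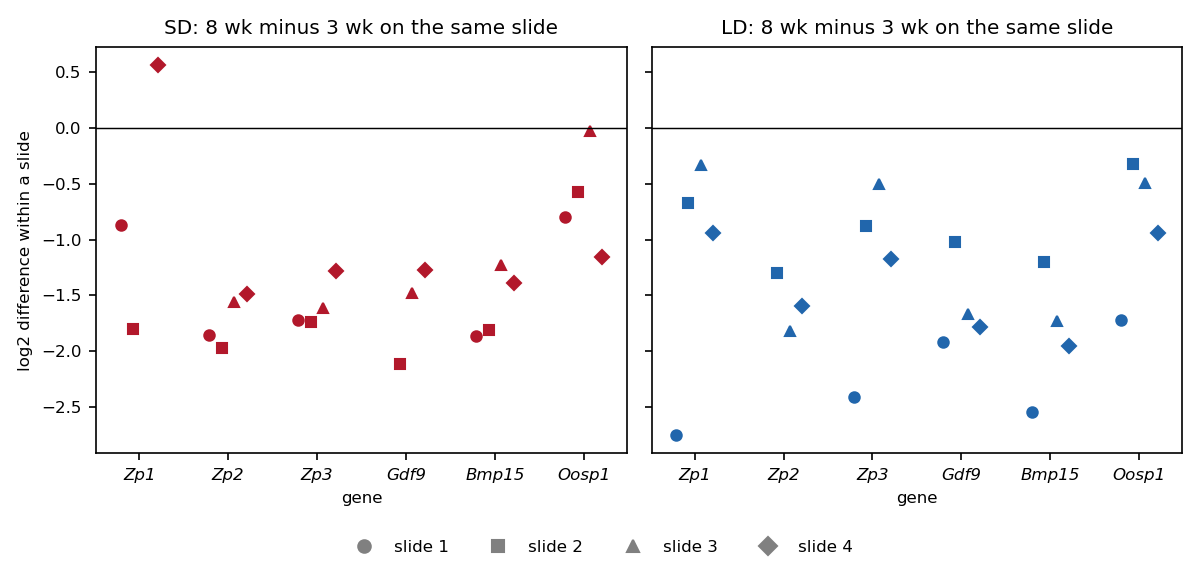
Log2 difference between the 8-wk and the 3-wk array of the same slide (vertical axis) for each gene, SD on the left and LD on the right, with 1 symbol per slide and the tested probe of each gene. Symbols are missing where the 3-wk spot was an outlier: Gdf9 on slide 1 and Zp1 on slide 3 in SD, and Zp2 on slide 1 in LD. Apart from Zp1 on slide 4 in SD, at 0.56, every symbol lies below 0. The Oosp1 probe entered the test through the 3-wk groups alone, so its symbols are a description.

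None of the 6 genes passed the test between photoperiods at either age, and for Zp2, Zp3, Gdf9 and Bmp15 the estimated differences were smaller than the age changes. At 8 wk 0 of 6 were called between SD and LD by limma, where 0.968% of all identifiers were called. At 3 wk 0 of 6 were called, where 0% of all identifiers were. At an unadjusted p under 0.05 the count was 0 of 6 at both ages, where 6.9% of all identifiers were at 8 wk and 1.58% at 3 wk. With slide as a block 0 of 6 were called, where 2.5% of all identifiers were at 8 wk and 0% at 3 wk. The SD and LD arrays overlapped for each of the 6 genes at both ages, where 4.15% of all identifiers had no overlap at 8 wk and 1.61% at 3 wk.

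At 8 wk Zp2 averaged 0.92 ± 0.33 in SD and 0.70 ± 0.55 in LD (SD, n = 4 each), a difference of 0.22 with a 95% interval of -0.38 to 0.82. Gdf9 averaged 0.90 ± 0.25 in SD and 0.61 ± 0.52 in LD, a difference of 0.29 with an interval of -0.36 to 0.94. The other differences at 8 wk were 0.26 for Bmp15, -0.17 for Zp3, 0.03 for Zp1 and -0.03 for Oosp1. For 4 of the 6 genes, Zp2, Zp3, Gdf9 and Oosp1, the interval at 8 wk stayed within a 2-fold difference either way. The same held for 81.5% of all identifiers, and the Oosp1 signals were near background. That of Bmp15 reached 1.01, and that of Zp1 ran from -1.15 to 1.22.

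At 3 wk Zp2 averaged 2.64 ± 0.52 in SD (SD, n = 4) and 2.04 ± 0.14 in LD (SD, n = 3). It was 0.60 (SE 0.31), with a 95% interval of -0.05 to 1.25 and an unadjusted p of 0.0684 in limma. The LD array missing from that mean is the outlier spot at 3.44, which is above the LD arrays that were kept. With outlier spots kept the 3-wk difference was 0.26 for Zp2 and -0.86 for Zp1, and with slide as a block 0.42 for Zp2 and -0.57 for Zp1. Bmp15 averaged 2.65 ± 0.5 in SD and 2.66 ± 0.84 in LD (SD, n = 4 each), and its difference was -0.02 with an interval of -0.77 to 0.73. The difference was 0.18 for Zp3, 0.19 for Gdf9, -0.44 for Zp1 and -0.26 for Oosp1. The intervals of Zp3, Gdf9 and Bmp15 stayed within a 2-fold difference either way, as did those of 84.9% of all identifiers.

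Whether the age change differed between photoperiods was tested as an interaction. None of the 6 genes passed in limma with or without slide as a block, where 0.0645% of all identifiers passed without the block and 0.169% with it, and 0 of 6 had an unadjusted p under 0.05, where 3.05% of all identifiers did. The change with age in SD less that in LD was -0.38 for Zp2, -0.35 for Zp3, 0.10 for Gdf9, 0.28 for Bmp15, 0.47 for Zp1 and 0.23 for Oosp1. The 95% intervals were wide, from -1.27 to 0.51 for Zp2 and from -0.79 to 1.34 for Bmp15. With slide as a block those of Zp2 and Gdf9 narrowed to within 2-fold either way, -0.82 to 0.41 and -0.82 to 0.63. In that fit 79.6% of all identifiers had an interval within 2-fold. A difference in the age change between photoperiods was not resolved with 4 arrays a group.

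**Figure D4:**
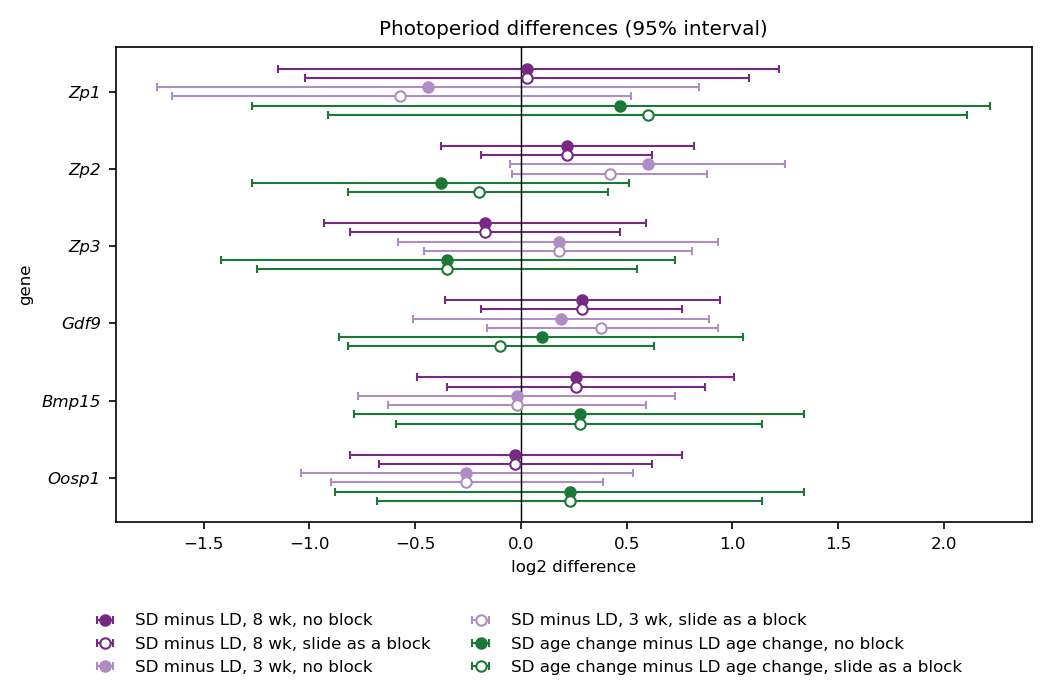
Log2 differences (horizontal axis) with 95% intervals for each gene: SD minus LD at 8 wk, SD minus LD at 3 wk, and the change with age in SD less that in LD. Filled symbols are the fit without a block, open symbols the fit with slide as a block, and every interval includes 0.

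Ordered by mean level, both 3-wk groups stood above both 8-wk groups for Zp2, Zp3, Gdf9 and Bmp15. The means of Zp1 and Oosp1 had the same order, but their ages overlapped. Oosp1 also entered the test through the 3-wk groups alone, so its order adds no further support. Within an age the photoperiods were neighbours in that order and overlapped for all 6. For Zp2, Zp3, Gdf9 and Bmp15 the step in the order that did not overlap was the one between the ages.

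Arrays of a group also differed among themselves, and those differences were correlated among Zp2, Zp3, Gdf9 and Bmp15. Each hamster had 1 array, so differences between hamsters and between arrays cannot be told apart. In LD at 3 wk all of them were highest in replicate 1 and lowest in replicate 3, and in SD at 3 wk all were lowest in replicate 4, with outlier spots counted. At 8 wk the order was less alike: in SD Gdf9 was lowest in replicate 2 and the others in replicate 4, and in LD Zp3 was lowest in replicate 2 and the others in replicate 3. Over deviations from group means, the 6 pairs among these genes had Pearson's r between 0.645 and 0.906, with a median of 0.819. With slide means also removed the median was 0.815. Zp1 had r between 0.607 and 0.836 with these 4 genes, and Oosp1 between -0.328 and 0.134 with the other 5. With slide means removed these were 0.585 to 0.903 for Zp1 and 0.197 to 0.554 for Oosp1. Outlier spots were left out of these r, so pairs with Zp1, Zp2 or Gdf9 rest on 14 or 15 arrays and the others on 16. The values describe arrays that share slides and scaling, and carry no test.

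**Figure D5:**
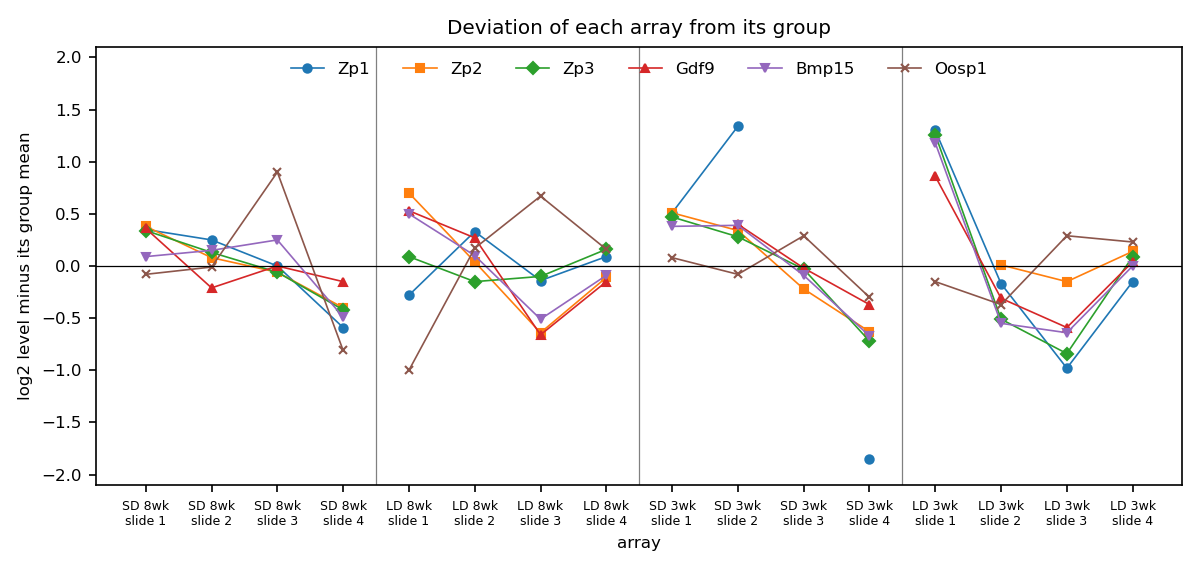
Deviation of each array from its group mean (vertical axis, log2) for the 6 genes, with arrays in group and slide order along the horizontal axis and lines joining the arrays of a group; outlier spots are left out. The lines of Zp2, Zp3, Gdf9 and Bmp15 run close together in SD at 3 wk, where Zp1 parts from them. In LD at 8 wk Zp3 parts from Zp2, Gdf9 and Bmp15 on slides 1 and 3, at 0.09 and -0.10 against 0.50 and -0.51 for Bmp15. In LD at 3 wk the mean of Zp2 lacks its outlier spot, and on slide 3 Zp2 is at -0.15 and Zp3 at -0.84. Oosp1 departs from these genes before slides are taken into account.

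The spread of the ratios among these 4 genes was smaller than their age changes. Centred log2 ratios were taken over the 16 arrays with outlier spots counted. Their SDs were 0.20 for Zp2 over Bmp15, 0.25 for Zp2 over Gdf9 and 0.27 for Gdf9 over Bmp15. They were 0.32 for Zp3 over Bmp15, 0.34 for Zp2 over Zp3 and 0.38 for Zp3 over Gdf9. The ratio of Zp1 over Zp3 had an SD of 0.79. Zp3 over Bmp15 ran from -0.04 to 0.78 in LD at 8 wk, against -0.45 to -0.16 in LD at 3 wk, with no overlap. In SD it ran from -0.37 to 0.18 at 8 wk, against -0.15 to 0.04 at 3 wk, and the ages overlapped. This split was picked out after the values were seen and was not tested.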

How the data were processed

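Per the file headers and the protocols in the labels, ovarian RNA was labelled with Cy3 and hybridised to single-colour Agilent mouse arrays, and spots were read with Feature Extraction 10.5.1.1. The deposited scanner files give each spot's processed intensity, already background-corrected, with no scaling between arrays. The deposited value table differed from the scanner intensity by over 0.5% in 4 of 694064 cells and was an alternative. Control spots and spots marked as outliers were left out, log2 intensity was set relative to the array's 75th percentile, and spots of a probe were averaged. An identifier was kept if, in 1 group or more, each of the 4 arrays had its probe well above background, and if at least 12 arrays measured it. The brightest probe stood for it. The 16 arrays were fitted together by group with limma 3.58.1 (R 4.3.3; lmFit, eBayes with an intensity trend) and p-values were adjusted by Benjamini-Hochberg over 20141 identifiers, after a test on simulated data. Slide as a block, other scalings, filters and omitted arrays were alternatives. The labels name separate animals but no litters. The number of arrays limits precision.

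The 6 genes, the lists and the comparisons were chosen with earlier results of these data known. All 6 genes are named, under the rule that every gene chosen is described. The files pair no identifier with a gene symbol; the 6 symbols were given with their identifiers, and wider marker and pathway lists were not used here.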

Additional observations from a re-analysis of the deposited data

How the results depend on the processing

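The changes of Zp2, Zp3, Gdf9 and Bmp15 with age kept their sign under all 25 alternatives in both photoperiods, and none of the 6 genes was called between photoperiods or in the interaction under any alternative. The number called with age moved most under 6 settings: in LD it was 0 with only the groups compared, 1 without slide 2 and 0 without slide 3 or slide 4, against 3; in SD it was 0 without slide 2 and 2 without slide 3, against 4. Over all identifiers these LD settings called 207, 224, 21 and 5, against 603, and the SD settings 424 and 788, against 1828. In LD it was 4 with array weights, quantile normalization, outlier spots kept or slide as a block, which called 1504, 733, 927 and 2215 of all identifiers. With single arrays left out the number was 3 to 5 in SD and 2 to 3 in LD. Over all identifiers these fits called 1122 to 1576 in SD and 223 to 671 in LD. In SD slide as a block called 4515 of all identifiers. Averaging all probes gave Zp2 a change of -0.93 in LD (limma adjusted p = 0.285); there the LD 3-wk array with the outlier spot holds only the dim probe. The normexp alternative was fitted on spots from the 1st percentile up, because its fit ran away on 5 arrays; that choice, the floor for dim signals and the omission of slides 2 to 4 were made after seeing the data.

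The values that changed sign were all uncalled. For SD minus LD at 3 wk they were 0.44 for Zp1 without slide 4, -0.09 for Zp3 without slide 2 and -0.09 without slide 3, -0.11 for Gdf9 without slide 2, and 0.18 for Oosp1 with no filter on dim probes. For Bmp15 they were 0.08 with array weights, 0.03 with median centring, 0.25 without slide 1 and 0.21 without slide 4. At 8 wk they were -0.10 for Zp1 with array weights, -0.17 without slide 1 and -0.01 without slide 3, and 0.02 for Zp3 without slide 4. Oosp1 at 8 wk gave 0.05 with dim signals raised, 0 with quantile normalization, 0.03 without slide 2 and 0.30 without slide 4. For the interaction they were -0.18 for Zp1 without slide 4, and for Gdf9 0 with array weights, -0.10 with slide as a block, -0.13 without slide 1 and -0.10 without slide 4. Oosp1 gave -0.21 with no filter and 0 without slide 1. The cause of these changes was not tested.

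With single arrays left out, SD minus LD at 3 wk ran from -1.11 to 0.49 for Zp1, -0.11 to 0.60 for Zp3, -0.01 to 0.48 for Gdf9 and -0.23 to 0.38 for Bmp15. At 8 wk it ran from -0.08 to 0.23 for Zp1 and -0.36 to 0.24 for Oosp1. The interaction ran from -0.45 to 1.14 for Zp1, -0.19 to 0.29 for Gdf9, -0.12 to 0.49 for Bmp15 and -0.10 to 0.50 for Oosp1. Signal over background limits Oosp1, and 4 arrays a group limit every comparison of photoperiods.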

Other observations

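Across the 16 arrays, after centring on slides, 440 of 18643 other identifiers (2.36%) had Pearson's r over 0.9 with the mean level of the 6 genes, and the median r was 0.046. The most alike were NM_031389 (r = 0.991) and NM_007413 (r = 0.989), which the files do not pair with symbols. NM_031389 fell by 1.42 in SD (limma adjusted p = 0.0027) and it fell by 1.53 in LD (limma adjusted p = 0.00578) between the ages on the log2 scale. NM_007413 fell by 1.33 in SD (limma adjusted p = 0.011) and it fell by 1.35 in LD (limma adjusted p = 0.0229). They were picked for their likeness to the 6 genes, so these values are a description. Set against the mean of the other 5, Bmp15 had r = 0.976, Zp3 0.965, Gdf9 0.932, Zp2 0.925, Oosp1 0.775 and Zp1 0.764. Ranked by r among 18644 identifiers, Bmp15 came 23, Zp3 49, Gdf9 230, Zp2 269, Oosp1 1559 and Zp1 1753. Group means were not removed here, so r takes in the differences between the ages.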
